A study of Mus musculus with 8 samples.

Results

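The transcripts described here encode the TGF-beta ligands (Tgfb1, Tgfb2 and Tgfb3), their receptors (Tgfbr1, Tgfbr2 and Tgfbr3) and the Smad proteins that carry the signal to the nucleus (Smad2, Smad3 and Smad4). They were chosen by annotation: 23 of the 45101 probe sets on the array carried exactly 1 of these 9 gene symbols, out of 18193 symbols held by probe sets with a single one. RNA came from NS5 cells, labelled as neural stem cells of mouse brain at E11.5 (an embryonic day), on 8 Affymetrix arrays in 4 groups of 2. Cells of all groups were plated with FGF2 and EGF for 24 h, kept without factors for 4 h and treated for 48 h. The groups are Ethanol and TGF-beta1, TGF-beta1, Ethanol and FGF2, and FGF2, with ethanol at 400 mg/dl and each growth factor at a labelled 10 ng/ul. All cells belong to 1 line. Nothing in the labels tells separate cultures from repeat arrays, so p-values measure the spread between these samples, which may be technical.

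TGF-beta ligands are made as latent precursors and, once freed, bind the type II receptor Tgfbr2, which phosphorylates the type I receptor Tgfbr1. Tgfbr1 in turn phosphorylates Smad2 and Smad3, which enter the nucleus with the shared partner Smad4, while Tgfbr3 (betaglycan) presents ligand, TGF-beta2 in particular, to the other receptors. In neural progenitors the pathway is known for its part in leaving the cell cycle, neuronal specification and matrix production. TGF-beta1 was added to these cultures as protein, so the arrays measured only the transcripts the cells made themselves.

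All values are MAS5 signals on a linear scale, scaled by the authors to the same trimmed mean on every array, and the number of arrays limits their precision. The array median ran from 50.6 to 86.5. Of the neural stem cell markers 8 of 10 passed the signal filter (Nes, Sox2, Vim, Fabp7, Slc1a3, Pax6, Olig2 and Hes1), as did 3 of 5 neuronal, 4 of 4 astrocyte and 3 of 5 mesenchymal markers, 1 of 3 pluripotency markers (Nanog), and 0 of the endothelial, microglial and oligodendrocyte markers. Fn1 (fibronectin) and Pmepa1 (a feedback inhibitor induced by TGF-beta) separated the growth factors without ethanol, with Fn1 at 3015 and 4109 in TGF-beta1 against 119.7 and 139 in FGF2. With ethanol, the arrays labelled replicate 1 went against their labels: Fn1 was 124 on replicate 1 of Ethanol and TGF-beta1 and 6828 on replicate 1 of Ethanol and FGF2. Every array was kept in its labelled group. These 2 arrays are called the doubted arrays below, and the fold changes and medians for ethanol are followed by the value without them, which leaves 1 array in each ethanol group. The Gapdh 3'/5' signal ratio, which goes up as RNA degrades, stood at 3.33 and 3.48 in Ethanol and FGF2 and at 1.64 to 2.20 on the other 6 arrays. In such bulk samples fewer cells of a type and less RNA per cell cannot be told apart.

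Promoter windows from RefSeq (GRCm38.p6) were matched by symbol for 5 of the 9 genes. Those of Tgfb2 and Tgfb1 are shown because the probe sets of these 2 ligand genes fell on opposite sides of the signal filter. Each window runs from 250 bases before to 50 bases after a listed transcript start, 5′ to 3′ on the gene's strand. Capitals mark matches, on either strand, to a TATA box (TATAAA), an E-box (CACGTG), the core of a cAMP response element (CGTCA), a GC box (GGGCGG) and a motif that Smads bind (CAGAC). None of the matches overlap. The Tgfb2 window is chr1:186705940-186706239 on the minus strand, and the Tgfb1 window is chr7:25686752-25687051 on the plus strand.
Tgfb2: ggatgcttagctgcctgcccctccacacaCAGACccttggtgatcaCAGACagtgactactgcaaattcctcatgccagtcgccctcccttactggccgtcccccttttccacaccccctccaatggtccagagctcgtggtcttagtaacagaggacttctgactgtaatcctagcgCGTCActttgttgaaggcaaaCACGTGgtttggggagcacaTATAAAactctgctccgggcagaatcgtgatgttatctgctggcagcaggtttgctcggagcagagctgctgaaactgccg
Tgfb1: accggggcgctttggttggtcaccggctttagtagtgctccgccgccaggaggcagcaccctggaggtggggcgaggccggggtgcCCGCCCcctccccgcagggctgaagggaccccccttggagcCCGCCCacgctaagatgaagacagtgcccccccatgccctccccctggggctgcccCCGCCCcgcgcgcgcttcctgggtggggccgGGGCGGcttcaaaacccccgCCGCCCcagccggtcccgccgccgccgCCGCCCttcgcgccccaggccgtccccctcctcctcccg
In the Tgfb2 window the TATA box began at position −31 from the start, the E-box at −51, the cAMP response core at −72 and the Smad motif at −221 and −204. The Tgfb1 window held 6 GC boxes and no match to the other motifs, and 77.0% of its bases were G or C, against 54.3% in the Tgfb2 window and a median of 52.7% over 32851 windows. Among these windows 13.6% held TATAAA, 7.15% CACGTG, 20.8% CGTCA, 35.7% GGGCGG and 49.6% CAGAC. These matches describe the sequence alone.

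Of the 23 probe sets, 15 reached the signal filter and were tested: 4 for Tgfb2, 1 for Tgfb3, 2 for Tgfbr1, 1 each for Tgfbr2, Tgfbr3 and Smad3, 2 for Smad2 and 3 for Smad4. The filter kept the 22519 probe sets whose mean log2(signal + 23.68) was at least the median of 6.46, the constant 23.68 being the signal at the 25th percentile. The tested members nearest to it were Tgfb2 (1423250_a_at, mean 6.75) and Tgfb3 (1417455_at, 6.78), and the untested one nearest to it was Tgfbr1 (1420893_a_at, 6.09). The 8 untested probe sets had signals up to 110.5, and 34 of their 64 values lay under the constant. Probe sets of different genes, or of 1 gene, are not compared in level, since each binds with its own strength.

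Tgfb1, the ligand that was added as protein, had no tested probe set. The gene lies on chromosome 7 from 25687002 to 25705077 (GRCm38.p6, as for all positions). By 1420653_at its signals were 15.05 and 2.71 in Ethanol and TGF-beta1, 2.84 and 35.2 in TGF-beta1, 3.09 and 4.85 in Ethanol and FGF2, and 6.47 and 5.17 in FGF2. By 1445360_at they were 41.4 and 31.4 in Ethanol and TGF-beta1, 22.4 and 3.32 in TGF-beta1, 18.3 and 33.3 in Ethanol and FGF2, and 9.15 and 27.7 in FGF2. Both probe sets were low on all 8 arrays, with no group apart from the others.

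Tgfb3, the third ligand (chromosome 12, 86056743 to 86079041), was the member with the widest spread over the arrays. Its signal was 39.3 and 243 in Ethanol and TGF-beta1, 298 and 99.1 in TGF-beta1, 221 and 21.0 in Ethanol and FGF2, and 65.0 and 8.82 in FGF2 (replicates 1 and 2). The 2 groups without ethanol did not overlap, and both ethanol groups held 1 high and 1 low array. The high ethanol arrays were replicate 2 of Ethanol and TGF-beta1 and replicate 1 of Ethanol and FGF2, on which Fn1 (8226 and 6828) and Pmepa1 (7454 and 8198) were high as well. On the other 2 ethanol arrays Fn1 was 124 in Ethanol and TGF-beta1 and 116 in Ethanol and FGF2, and Pmepa1 was 1081 and 1057. The plot of Tgfb3 beside Fn1 and Pmepa1 shows this array by array.

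**Figure D1:**
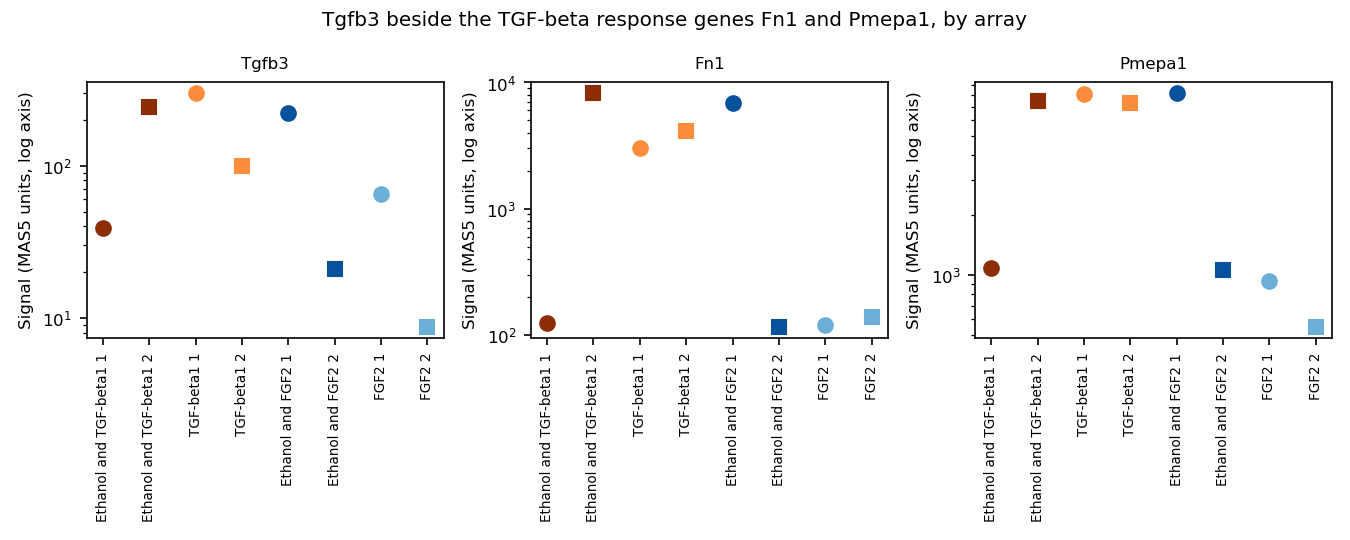
Signals (log axis, MAS5 units) of Tgfb3, Fn1 and Pmepa1 on each of the 8 arrays, with circles for replicate 1 and squares for replicate 2. Tgfb3 lay at 99.1 or above on the TGF-beta1 arrays and on the ethanol arrays with Fn1 of 6828 and 8226, and at 65.0 or below on the other 4.

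In TGF-beta1 against FGF2 without ethanol Tgfb3 averaged 198 ± 140.4 and 36.9 ± 39.7 (mean ± SD, n = 2 each), a log2 fold change of 1.89 ± 0.96 (SE, 95% interval −0.28 to 4.06, limma adjusted p = 1.00). It was 1.16 without FGF2 replicate 2, 1.19 without TGF-beta1 replicate 1, 2.51 with a constant of 5 and 1.07 with one of 100. That comparison used no doubted array for its means, but its spread came from all 8 arrays. An additive model of growth factor and ethanol on the 6 arrays left without the doubted ones, added after the data had been seen, gave 2.12 ± 0.53 (95% interval 0.89 to 3.34, adjusted p = 0.259). In that model Fn1 had 4.99 ± 0.30 (adjusted p = 0.00454) and Pmepa1 3.19 ± 0.24 (adjusted p = 0.00762). The growth factor effect of this model also draws on the 1 array left in each ethanol group. The doubted arrays were left out for their Fn1 levels, and Tgfb3 and Pmepa1 were high or low with Fn1 on them. The values of Tgfb3, Fn1 and Pmepa1 without these arrays are therefore not independent evidence. With ethanol, TGF-beta1 against FGF2 gave Tgfb3 a log2 fold change of 0.31 ± 0.96, and 2.58 without the doubted arrays, which leaves 1 array in each of these groups. Signals of 8.82 in FGF2 and 21.0 in Ethanol and FGF2 are below 23.68, and these fold changes therefore vary with the constant added.

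The genes whose tested probe set followed Tgfb3 most closely over the 8 arrays were Atp1b1 (a sodium pump subunit, Pearson r = 0.984), Bcar1 (p130Cas, an adaptor at integrin adhesions, 0.971) and Wdsub1 (0.970). The Bcar1 signal, from a probe set of a type that can match transcripts of several genes, was 618 and 1170.3 in Ethanol and TGF-beta1, 994 and 737 in TGF-beta1, 1014 and 507 in Ethanol and FGF2, and 615 and 369.7 in FGF2. These correlations are the highest among those of the 22519 probe sets that carry a single symbol of another gene. They were taken over arrays in 4 shared groups and are given as a description.

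Tgfb2, the remaining ligand (chromosome 1, 186622787 to 186709697), had 4 tested probe sets. By 1450923_at its signal was 1368 and 952 in Ethanol and TGF-beta1, 1414 and 1104 in TGF-beta1, 1239 and 1020.1 in Ethanol and FGF2, and 1381 and 1696 in FGF2. By 1438303_at it was 370.1 and 321 in Ethanol and TGF-beta1, 507 and 403 in TGF-beta1, 326 and 415 in Ethanol and FGF2, and 504 and 638 in FGF2. The ethanol arrays were the lower ones by 1438303_at, overlapping only where Ethanol and FGF2 replicate 2 exceeded TGF-beta1 replicate 2. The ethanol groups also lay below FGF2 by 1450923_at, while in TGF-beta1 the arrays overlapped.

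Averaged over both growth factors, ethanol gave Tgfb2 a log2 fold change of −0.48 ± 0.20 by 1438303_at (95% interval −0.94 to −0.03, adjusted p = 0.455, and −0.45 without the doubted arrays) and −0.28 ± 0.19 by 1450923_at (adjusted p = 0.687, and −0.48 without the doubted arrays). The others had 0.06 ± 0.23 by 1450922_a_at (−0.08 without the doubted arrays) and −0.69 ± 0.35 by 1423250_a_at (−0.40 without them). By 1450922_a_at the signal was 479.6 and 335 in Ethanol and TGF-beta1, 427 and 279 in TGF-beta1, 407 and 382 in Ethanol and FGF2, and 375 and 464 in FGF2, with all groups overlapping. By 1423250_a_at the signal was 92.8 and 94.7 in Ethanol and TGF-beta1, 98.5 and 93.7 in TGF-beta1, 17.6 and 66.4 in Ethanol and FGF2, and 89.7 and 187 in FGF2. Within FGF2 this made a log2 fold change of −1.34 ± 0.49 (adjusted p = 0.547), which was −0.78 without the doubted arrays. None of these values passed the test. In TGF-beta1 against FGF2 without ethanol the 4 probe sets had log2 fold changes from −0.37 to −0.26, with 95% intervals that all held 0.

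**Figure D2:**
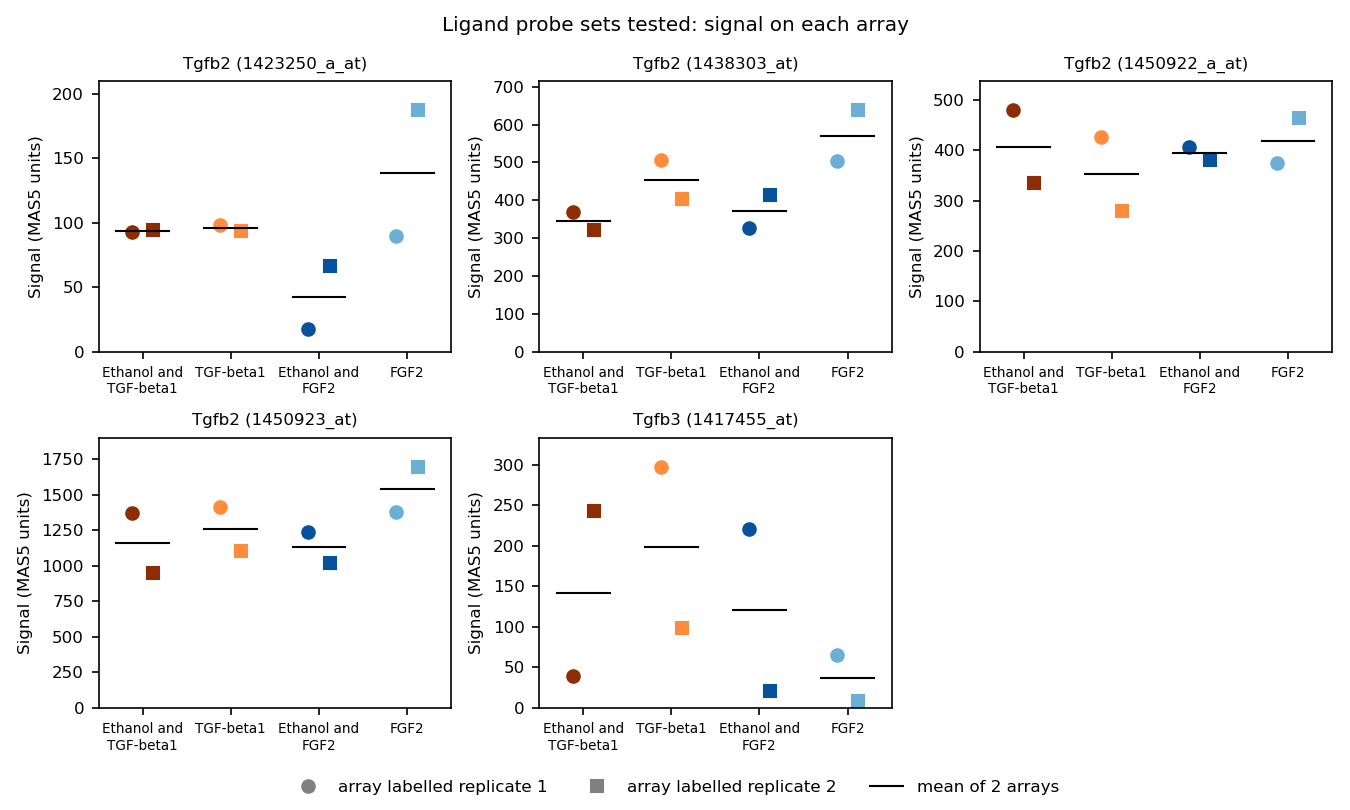
Signal (linear axis from 0, MAS5 units) of the 5 ligand probe sets tested, by group, with points for arrays and lines for means of 2 arrays. Tgfb2 stayed within 952 to 1696 by 1450923_at on all 8 arrays, and Tgfb3 ranged from 8.82 to 298.

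No receptor passed the test in any of the 6 comparisons on the 8 arrays. For ethanol within FGF2 the tested probe sets of Tgfbr1 had log2 fold changes of the same sign and different size (−1.48 by 1420894_at, −0.38 by 1420895_at). Within TGF-beta1 they had 0.71 and 0.38, and for ethanol averaged over both growth factors −0.39 and 0.001. Tgfbr1, the type I receptor kinase (chromosome 4, 47353222 to 47414926), had signals by 1420895_at of 2577 and 1991 in Ethanol and TGF-beta1, 2122 and 1422 in TGF-beta1, 1391 and 2756 in Ethanol and FGF2, and 2558 and 2543 in FGF2. The low value in Ethanol and FGF2 was on the doubted array. In TGF-beta1 against FGF2 without ethanol the groups did not overlap, and the log2 fold change was −0.55 ± 0.35 (adjusted p = 1.00), or −0.52 ± 0.19 in the additive model on 6 arrays (adjusted p = 0.508). It was −0.26 without TGF-beta1 replicate 2 and −0.83 without TGF-beta1 replicate 1.

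By 1420894_at the Tgfbr1 signal was 273 and 220.4 in Ethanol and TGF-beta1, 95.6 and 202 in TGF-beta1, 66.6 and 68.5 in Ethanol and FGF2, and 187 and 286 in FGF2. Both Ethanol and FGF2 arrays lay below all others, and both Ethanol and TGF-beta1 arrays above the TGF-beta1 ones. Ethanol within FGF2 gave a log2 fold change of −1.48 ± 0.41 (95% interval −2.40 to −0.56, unadjusted p = 0.00536, adjusted p = 0.379), and −1.47 without the doubted arrays. Ethanol within TGF-beta1 gave 0.71 ± 0.41 (adjusted p = 0.654), and 0.57 without them. Without TGF-beta1 replicate 1 this value was 0.25, and without TGF-beta1 replicate 2 it was 1.17. The difference between these effects was 2.19 ± 0.58 on the log2 scale (unadjusted p = 0.00413, adjusted p = 0.854 by limma), and 2.04 without the doubted arrays. The same arrays gave 1.56 ± 0.41 for TGF-beta1 against FGF2 with ethanol (adjusted p = 0.986, and 1.40 without the doubted arrays). A crossed pairing of the 4 ethanol arrays was added after the data had been seen. It joined replicate 1 of each group with replicate 2 of the other, which paired arrays of like Fn1 level (124 with 116, and 8226 with 6828). With 1 residual degree of freedom it gave the same fold change with an adjusted p of 0.0142 by limma. This call depends on the pairing assumed, which follows the Fn1 levels of these same arrays. These comparisons share arrays and do not support one another.

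The Ethanol and FGF2 arrays that were low by 1420894_at were also those with Gapdh 3'/5' ratios of 3.33 and 3.48, against 1.64 and 2.20 in FGF2. The actin 3'/5' ratios overlapped, at 3.57 and 4.20 in Ethanol and FGF2 against 2.35 and 3.61 in FGF2, and the part of RNA integrity in this difference was not tested. By 1420895_at ethanol within FGF2 gave −0.38 ± 0.35 (adjusted p = 0.828), and 0.11 without the doubted arrays. Of the 2 tested Tgfbr1 probe sets, only 1420894_at had both Ethanol and FGF2 arrays below both FGF2 arrays. The closest followers of 1420894_at over the 8 arrays were Otud4 (a deubiquitinase, Pearson r = 0.971), Efcab14 (0.969) and Ccnt2 (cyclin T2, a partner of the elongation kinase Cdk9, 0.969). The Otud4 signal was 260.2 and 199 in Ethanol and TGF-beta1, 117 and 166 in TGF-beta1, 77.8 and 100.1 in Ethanol and FGF2, and 212 and 254 in FGF2.

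Tgfbr2, the type II receptor that binds ligand first (chromosome 9, 116087695 to 116175363), had signals by 1426397_at of 293 and 462 in Ethanol and TGF-beta1, 378 and 228 in TGF-beta1, 497 and 375 in Ethanol and FGF2, and 889 and 425 in FGF2. FGF2 replicate 1 stood far above the other 7 arrays. Without ethanol TGF-beta1 lay below FGF2 on every array, with a log2 fold change of −1.01 ± 0.42 (95% interval −1.95 to −0.06, unadjusted p = 0.0392, adjusted p = 1.00). It was −0.50 without FGF2 replicate 1 and −1.52 without FGF2 replicate 2. In the additive model on 6 arrays it was −0.58 ± 0.39 (adjusted p = 0.902).

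Tgfbr3, which presents ligand (chromosome 5, 107106567 to 107289629), had signals by 1433795_at of 108 and 75.4 in Ethanol and TGF-beta1, 102 and 62.0 in TGF-beta1, 60.6 and 142 in Ethanol and FGF2, and 149 and 170.3 in FGF2. TGF-beta1 lay below FGF2 without ethanol, with a log2 fold change of −0.82 ± 0.45 (95% interval −1.83 to 0.19, adjusted p = 1.00), and −0.79 ± 0.31 in the additive model (95% interval −1.52 to −0.07, adjusted p = 0.573). In Ethanol and FGF2 the low array, at 60.6, was the doubted one. All 4 tested receptor probe sets had a log2 fold change under 0 in TGF-beta1 against FGF2 without ethanol, from −1.01 to −0.55, and 0 of the 4 passed by limma (1 at an unadjusted p under 0.05). For Tgfbr1 by 1420894_at that value, −0.64 ± 0.41, was −0.17 without TGF-beta1 replicate 1. For Tgfbr3 it was −0.54 without TGF-beta1 replicate 2. The additive model on 6 arrays gave Tgfbr1 0.045 by 1420894_at, but it also draws on the 1 array left in each ethanol group. Between those ethanol arrays the log2 fold change of TGF-beta1 against FGF2 was 1.40, and without ethanol it stayed at −0.64.

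**Figure D3:**
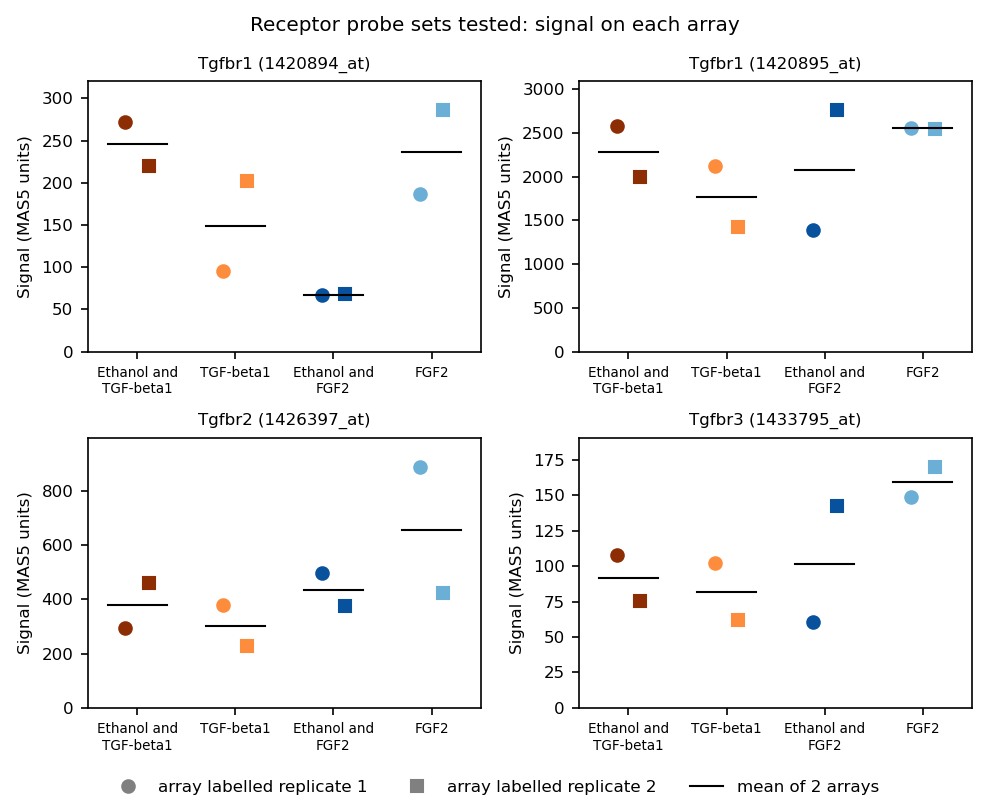
Signal (linear axis from 0, MAS5 units) of the 4 receptor probe sets tested, by group, with points for arrays and lines for means of 2 arrays. By 1420894_at Tgfbr1 was 66.6 and 68.5 in Ethanol and FGF2, and for Tgfbr2 FGF2 replicate 1 stood at 889.

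Smad2, Smad3 and Smad4, which carry the signal of the receptors, had 6 tested probe sets, with log2 fold changes of −0.44 to 0.01 in TGF-beta1 against FGF2 without ethanol. Smad2, on chromosome 18 from 76241090 to 76311748, had signals by 1420634_a_at of 545 and 494 in Ethanol and TGF-beta1, 457 and 566 in TGF-beta1, 534 and 536 in Ethanol and FGF2, and 573 and 507 in FGF2. All groups overlapped. In TGF-beta1 against FGF2 without ethanol its log2 fold change was −0.08 ± 0.25 (95% interval −0.65 to 0.50), and ethanol averaged over both growth factors gave 0.01 ± 0.18 (95% interval −0.40 to 0.42, and −0.02 without the doubted arrays). The intervals give the changes compatible with these arrays and are not limits of detection. By 1442062_at the Smad2 signal was 322 and 227 in Ethanol and TGF-beta1, 315 and 318 in TGF-beta1, 292 and 326 in Ethanol and FGF2, and 297 and 441 in FGF2, again with overlap between the groups of each comparison.

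Smad3, which binds DNA and drives many of the transcriptional responses (chromosome 9, 63646766 to 63757994), had signals by 1454960_at of 2236 and 1853 in Ethanol and TGF-beta1, 1602 and 1765 in TGF-beta1, 2331 and 2199 in Ethanol and FGF2, and 2030.2 and 2562 in FGF2. The TGF-beta1 arrays were the lowest of the 8. The log2 fold change of TGF-beta1 against FGF2 without ethanol was −0.44 ± 0.23 (95% interval −0.96 to 0.09, adjusted p = 1.00), −0.27 without FGF2 replicate 2, and −0.37 ± 0.17 in the additive model on 6 arrays (adjusted p = 0.673). Of the untested Smad3 probe sets, 1450471_at had 40.6 and 30.1 in Ethanol and TGF-beta1, 3.85 and 5.38 in TGF-beta1, 33.8 and 5.41 in Ethanol and FGF2, and 3.65 and 6.76 in FGF2. Those without ethanol were all under the constant.

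Smad4, the partner shared with BMP signalling (chromosome 18, 73634790 to 73703791), had 3 tested probe sets. By 1422486_a_at its signal was 4244 and 3612 in Ethanol and TGF-beta1, 3612 and 3821 in TGF-beta1, 4058 and 4032 in Ethanol and FGF2, and 4107 and 5219.6 in FGF2. TGF-beta1 lay below FGF2 without ethanol, with a log2 fold change of −0.32 ± 0.23 (95% interval −0.82 to 0.19), and −0.14 without FGF2 replicate 2. By 1422485_at it was 596 and 564 in Ethanol and TGF-beta1, 530.1 and 315 in TGF-beta1, 434 and 598 in Ethanol and FGF2, and 511 and 321 in FGF2. By 1422487_at it was 4419.6 and 3886 in Ethanol and TGF-beta1, 3484 and 3141 in TGF-beta1, 2624 and 4299 in Ethanol and FGF2, and 3926 and 3627 in FGF2, lowest on the doubted Ethanol and FGF2 array. By 1422485_at the 2 low arrays were those labelled replicate 2 of the groups without ethanol, whose median signals over all probe sets were 80.7 in TGF-beta1 and 86.5 in FGF2, against 50.6 and 50.7 on the replicate 1 arrays of these groups. These medians were 70.8 and 78.0 in Ethanol and TGF-beta1, and 83.3 and 65.0 in Ethanol and FGF2, where 1422485_at read 434 or more. Ethanol averaged over both growth factors gave 0.40 ± 0.25 by this probe set (adjusted p = 0.644), 0.49 without the doubted arrays and 0.22 without TGF-beta1 replicate 2. Tkfc (Pearson r = 0.991), Eya4 (a phosphatase and transcriptional cofactor, 0.980) and Csnk1g3 (a casein kinase, 0.974) followed it most closely over the 8 arrays, and each had its 2 lowest signals on the same 2 arrays.

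**Figure D4:**
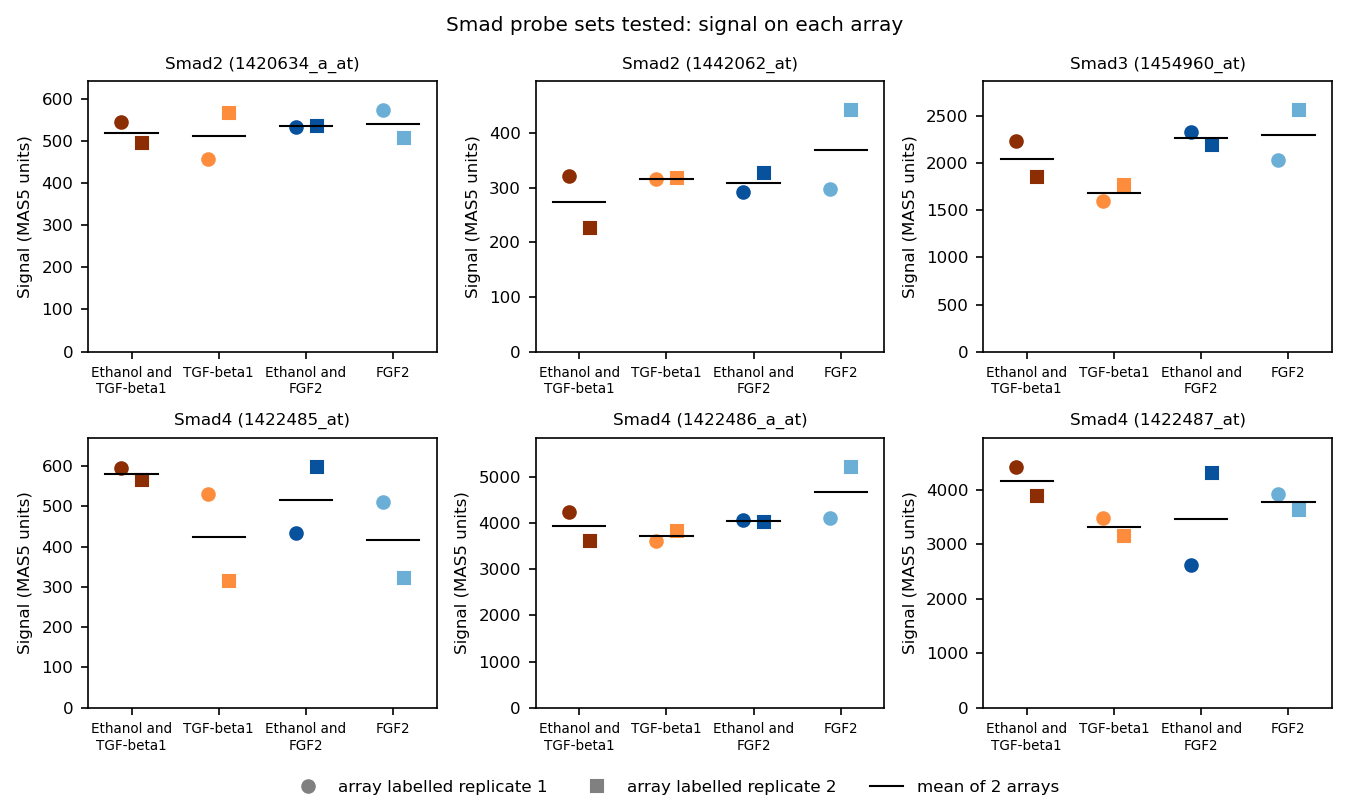
Signal (linear axis from 0, MAS5 units) of the 6 Smad probe sets tested, by group, with points for arrays and lines for means of 2 arrays. Smad2 stayed within 457 to 573 by 1420634_a_at, and by 1422485_at Smad4 was lowest on replicate 2 of the groups without ethanol.

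Counted together, 0 of the 15 members passed an adjusted p of 0.05 by limma in any of the 6 comparisons. TGF-beta1 against FGF2 called 0% of the 22519 probe sets without ethanol and 0% with it, so a count of 0 members there is that of the array as a whole. At an unadjusted p under 0.05 lay 1 member without ethanol (Tgfbr2) and 1 with it (Tgfbr1), beside 4.07% and 3.07% of all probe sets. In the additive model on 6 arrays 0.266% of probe sets were called, 55 higher and 5 lower in TGF-beta1, and 0 members. There 3 members had an unadjusted p under 0.05 (Tgfb3, Tgfbr1 by 1420895_at and Tgfbr3), beside 7.78% of all probe sets. Without ethanol the members had a median log2 fold change of −0.31 with 13 of 15 below 0, beside −0.02 and 52.3% of all probe sets below 0. The 15 are probe sets of 8 genes, with 4 for Tgfb2 and 3 for Smad4, and probe sets of the same gene are not independent. Every TGF-beta1 array lay below every FGF2 array for 6 of 15 members (Tgfbr1 by 1420895_at, Tgfbr2, Tgfbr3, Smad3 and Smad4 by 1422486_a_at and 1422487_at), beside 16.8% of all probe sets, and above for 1 (Tgfb3), beside 16.4%. On the 6 arrays without the doubted ones 4 lay below (Tgfbr1 by 1420895_at, Tgfbr3, Smad3 and Smad4 by 1422486_a_at), beside 5.25%, and 1 above (Tgfb3), beside 5.34%. Tgfb3 went with Fn1 on the doubted arrays, so its results on these 6 arrays are not independent evidence. With ethanol, Ethanol and TGF-beta1 lay above Ethanol and FGF2 for 2 members (Tgfb2 by 1423250_a_at and Tgfbr1 by 1420894_at), beside 18.1%, and below for 0, beside 15.9%.

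**Figure D5:**
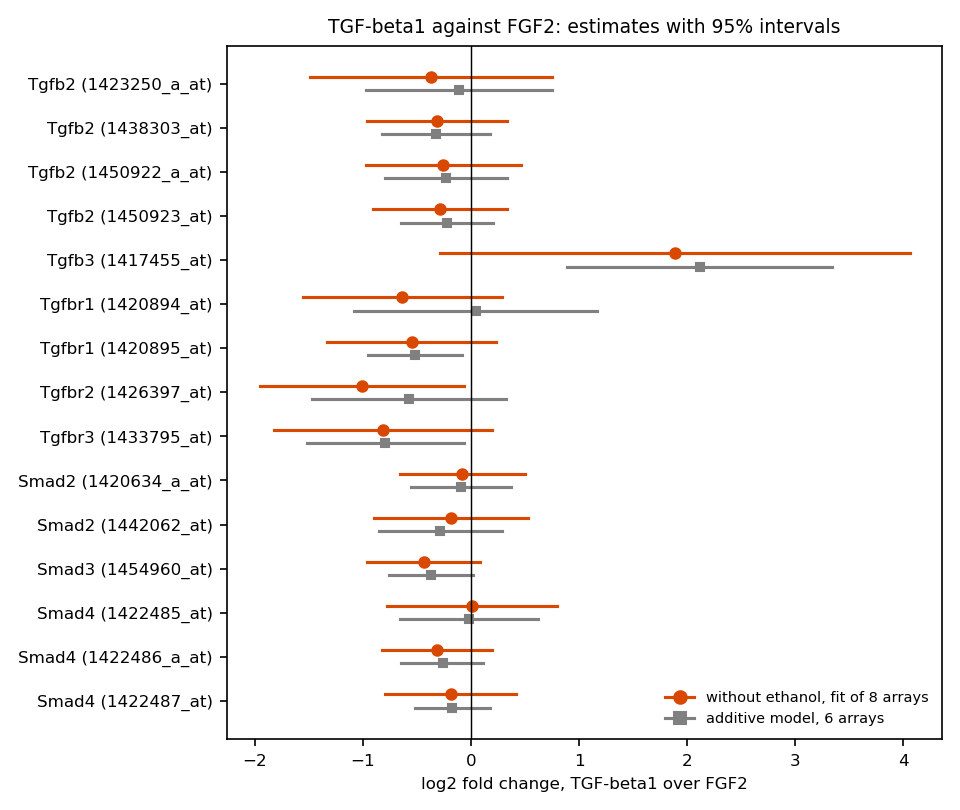
Log2 fold changes of TGF-beta1 over FGF2 with 95% intervals for the 15 tested probe sets, from the groups without ethanol in the fit of 8 arrays (circles) and from the additive model on 6 arrays (squares). Tgfb3 lies at 1.89 and 2.12, and the other probe sets lie between −1.01 and 0.05.

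Ethanol averaged over both growth factors called 1.25% of all probe sets and 0 of the 15 members by limma. Without the doubted arrays 0 probe sets were called (1939 at an unadjusted p under 0.05), against 282 with them. Of the members 1 had an unadjusted p under 0.05 (Tgfb2 by 1438303_at), beside 10.3% of all. Their median log2 fold change was −0.06, beside 0.05 for all probe sets (−0.08 and 0.03 without the doubted arrays), and no member separated the 4 ethanol arrays from the other 4, as 3.35% (above) and 3.87% (below) of all probe sets did. Within TGF-beta1 ethanol called 0.471% of probe sets and 0 members (0 at an unadjusted p under 0.05), with a median of 0.14 for the members and 0.06 for all (−0.02 and 0.06 without the doubted arrays). The 106 calls behind that share became 0 without the doubted arrays. Within FGF2 it called 0% and 0 members (2 at an unadjusted p under 0.05, Tgfbr1 by 1420894_at and Tgfb2 by 1423250_a_at), with medians of −0.22 and 0.03 (−0.14 and 0.02 without the doubted arrays). Both Ethanol and FGF2 arrays lay below both FGF2 arrays for 6 of 15 members (3 of Tgfb2, and 1 each of Tgfbr1, Tgfbr3 and Smad4), beside 14.7% of all probe sets, and above for 0, beside 17.1%. Both Ethanol and TGF-beta1 arrays lay above both TGF-beta1 arrays for 4 (Tgfbr1 by 1420894_at, Smad3, and Smad4 by 1422485_at and 1422487_at), beside 26.4%, and below for 1 (Tgfb2 by 1438303_at), beside 20.6%. The counts of separated arrays with ethanol all include the doubted arrays. The effect of ethanol differed between the growth factors for 0 members and 0% of probe sets (1 member at an unadjusted p under 0.05, Tgfbr1 by 1420894_at, beside 4.39% of all).

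The rest of the pathway was read from 6 lists of 74 genes, of which 71 were on the array and 52 had a tested probe set (105 probe sets). By limma 0 of these 105 passed in any of the 6 comparisons. In TGF-beta1 against FGF2 without ethanol the genes that hold or free latent ligand had a median log2 fold change of 0.04, with 5 of 10 probe sets above 0. Ltbp3, which tethers latent ligand to the matrix, had a signal of 2628 and 5618 in Ethanol and TGF-beta1, 4395 and 4699.6 in TGF-beta1, 5673 and 3383 in Ethanol and FGF2, and 2104 and 2685 in FGF2. Both TGF-beta1 arrays lay above both FGF2 arrays (log2 fold change 0.93 ± 0.38, adjusted p = 1.00), by a probe set that can match transcripts of several genes. Itgav, an integrin subunit, had 0.11 ± 0.27, and Itgb8, its partner in freeing ligand in the brain, −0.19 ± 0.28. Itgb8 had a log2 fold change of 0.93 ± 0.28 for ethanol within TGF-beta1 (adjusted p = 0.312), with signals of 5154 and 5343 where ethanol was added, beside 2461 and 3062 in TGF-beta1 alone. Without the doubted arrays it was 0.95 ± 0.26 (adjusted p = 0.552).

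Modulators of the receptors had a median of −0.14, with 15 of 33 probe sets above 0. Pmepa1 had 3.38 ± 0.98 without ethanol (adjusted p = 1.00), while Ppm1a (a Smad phosphatase) and Usp4 (a deubiquitinase of Tgfbr1) had −0.18 ± 0.23 and −0.01 ± 0.30. Nuclear partners of the Smads had −0.22, with 4 of 23 above 0. Among them were Skil (a corepressor induced by TGF-beta, 0.99 ± 0.34), Zeb1 (a repressor of epithelial genes, −0.15 ± 0.30) and Crebbp (a histone acetyltransferase, −0.18 ± 0.23). The Skil signal was 5367 and 9598 in Ethanol and TGF-beta1, 7815 and 7817 in TGF-beta1, 8320.2 and 5059.8 in Ethanol and FGF2, and 3558 and 4347 in FGF2.

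The activin and nodal arm, which also acts through Smad2 and Smad3, had a median of −0.09, with 3 of 7 probe sets above 0. Fst (follistatin, which binds and blocks activins) had signals of 395 and 4835 in Ethanol and TGF-beta1, 2582 and 1943 in TGF-beta1, 2109.5 and 439 in Ethanol and FGF2, and 426 and 233 in FGF2. Fst was high on the arrays on which Tgfb3 and Fn1 were high, and its log2 fold change without ethanol was 2.74 ± 1.02 (adjusted p = 1.00). Acvr2a (a type II receptor) and Inhbb (an activin subunit) had −0.25 ± 0.26 and 0.03 ± 0.26. The BMP arm had −0.21, with 5 of 19 above 0, and its members Bmpr2, Smad1 and Bmpr1a had −0.12 ± 0.25, −0.35 ± 0.26 and −0.27 ± 0.25. Targets of TGF-beta had a median of 0.63 with 11 of 13 above 0, among them Fn1 (4.54 ± 1.91), Cdkn1a (the CDK inhibitor p21, 0.75 ± 0.56) and Jun (an AP-1 factor, 0.02 ± 0.29). The median of all probe sets was −0.02. Averaged over both growth factors, ethanol gave the lists medians of 0.31, 0.19, 0.13, 0.21, 0.26 and 0.50 in the order above, beside 0.05 for all probe sets. Without the doubted arrays, and with the signal filter set again, the medians were 0.41, 0.16, 0.15, 0.26, 0.31 and 0.64, beside 0.03. The median of the targets was 1.19 within FGF2 (13 of 13 above 0) and 0.05 within TGF-beta1 (8 of 13), but 0.32 (9 of 13) and 0.90 (10 of 13) without the doubted arrays. Jun had the values 4820 and 8277 in Ethanol and TGF-beta1, 4099.5 and 4354 in TGF-beta1, 10054 and 7592 in Ethanol and FGF2, and 4041.5 and 4285 in FGF2. All 4 ethanol arrays were above the other 4 for Jun, with a log2 fold change of 0.82 ± 0.21 (adjusted p = 0.131), and 0.91 ± 0.17 without the doubted arrays (adjusted p = 0.201). In TGF-beta1 against FGF2 without ethanol the probe sets at an unadjusted p under 0.05 numbered 3 of 10, 8 of 33, 1 of 23, 1 of 7, 0 of 19 and 1 of 13 in the same order of lists, beside 4.07% of all probe sets. The tested probe sets of these lists come from 7, 12, 10, 6, 8 and 9 genes, and those of the same gene are not independent.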

How the data were processed

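RNA of 8 samples was measured on Affymetrix mouse arrays. The deposited values are linear signal intensities per probe set, made with MAS5 and GCOS per the submitters' processing notes; versions are not given in the sources used here, and detection calls were not used here. The authors had scaled every array to 1 trimmed mean. Of 45101 probe sets, 64 were controls and left out, 34945 had 1 symbol, 932 several and 9160 none. Signals were transformed as log2(signal + 23.68), and probe sets at or above the median mean entered a limma fit (limma 3.58.1, R 4.3.3): 4 group means, all 8 arrays, empirical Bayes with a trend (4 residual and 5.06 prior degrees of freedom). Fold changes are on that scale and understate those of low signals. P-values (two-sided) carry a Benjamini-Hochberg adjustment over the 22519 probe sets within each of 6 comparisons. The fit was run on simulated data with planted changes and independent noise on each array. That simulation held no doubted arrays and no deviations shared between arrays, so it does not cover these features of the data.

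All members are named. From each pathway list the 3 genes of largest mean signal are named, besides any past the threshold, Fn1 and Pmepa1, and for the member of largest spread in each role the 3 genes of highest correlation. The members, lists and tests were chosen with earlier results of these data known, and the lists are no independent support. Fold changes printed singly in the report were selected after their values were seen. Alternatives varied the constant, filter, scaling, moderation, probe sets, replicate block and arrays.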

Additional observations from a re-analysis of the deposited data

How the results depend on the processing

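No member passed the test under any of the 19 alternatives planned (limma, smallest adjusted p = 0.184, for ethanol within FGF2 without replicate 2 of Ethanol and FGF2). Replicate numbers are shared by the groups. Deviations of same-numbered arrays correlated at 0.56 between FGF2 and TGF-beta1, the groups without ethanol. In the pairs with an ethanol group they correlated from −0.339 to 0.034. The numbers were not taken as pairs in the main fit, and a pairing of the groups without ethanol alone was not fitted. The replicate block could not change a fold change, since each group holds 1 array of each number. It changed no member's call, but left 0 probe sets called for ethanol within TGF-beta1, where 106 were called. That count was also 0 without a trend and without both doubted arrays, 239 on the groups compared alone, and 0 to 213 with each array left out (0 without any array of either ethanol group or of TGF-beta1, 201 without FGF2 replicate 1 and 213 without FGF2 replicate 2). The other comparisons already hold all groups or gave no further call on their groups alone, except TGF-beta1 against FGF2 without ethanol: 2 there and 2 without both doubted arrays, against 0. For ethanol averaged over both growth factors, 282 calls became 179 with the filter at the 70th percentile, 184 with 1 probe set per gene, 0 without both doubted arrays, and 85 (without TGF-beta1 replicate 1) to 361 (without FGF2 replicate 2). It was 132 and 160 without Ethanol and FGF2 replicates 1 and 2, 127 without Ethanol and TGF-beta1 replicate 1 and 142 without TGF-beta1 replicate 2. Ethanol within FGF2 had 19 calls with no filter and 0 to 100 with each array left out (100 without FGF2 replicate 2). The additive model on 6 arrays, added later, called 60 probe sets. It also draws on the ethanol arrays left, and gave Tgfbr1 by 1420894_at 0.045, beside −0.64 in TGF-beta1 against FGF2 without ethanol. A crossed pairing of the 4 ethanol arrays, also added later, paired arrays of like Fn1 level and had 1 residual degree of freedom. It called 154 probe sets for TGF-beta1 against FGF2 with ethanol, 1 of them Tgfbr1 by 1420894_at (1.56 ± 0.39, adjusted p = 0.0142 by limma). With each array left out, Smad2 by 1420634_a_at ran from −0.227 to 0.068 in TGF-beta1 against FGF2 without ethanol and from −0.065 to 0.083 for ethanol averaged, Tgfb2 by 1450922_a_at from −0.082 to 0.206 for ethanol averaged, Tgfb3 from −0.914 to 1.537 in TGF-beta1 against FGF2 with ethanol, and Tgfbr1 by 1420895_at from −0.863 to 0.111 for ethanol within FGF2. Without both doubted arrays the ethanol estimates of Smad2 (1420634_a_at), Tgfb2 (1450922_a_at) and Tgfbr1 (1420895_at, within FGF2) became −0.023, −0.082 and 0.111, and that of Tgfb3 for TGF-beta1 against FGF2 with ethanol became 2.578. Over 15 members and 6 comparisons, 21 of 90 directions changed without both doubted arrays, 4 under quantile normalization and 0 under other constants. Without the doubted arrays the 15 directions of TGF-beta1 against FGF2 without ethanol could not change, since its means hold no doubted array. The cause of the changes was not tested.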
